A study of Homo sapiens with 9 samples.

Results

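The genes described here are 10 components of transforming growth factor beta (TGF-beta) signalling, taken by symbol from the 43424 gene symbols of the deposited expression table. They are the ligands TGFB1, TGFB2 and TGFB3, the receptors TGFBR1, TGFBR2 and TGFBR3, the latent binding protein LTBP1, the signal transducer SMAD3, the inhibitory SMAD7 and the SMAD corepressor SKIL. All 10 were in the table, and all 10 passed the filter on low values. Their messenger RNA was measured with a QuantSeq 3' kit, which reads the 3' end of transcripts, in 9 libraries of 3 groups. OV90, 3 libraries, is labelled a sensitive line of ovarian cancer cells and was grown in MCDB-105 medium with fetal bovine serum. OV90CisR1 and OV90CisR2, 3 libraries each, are labelled resistant and were kept in the same medium with cisplatin, so the resistant state and the presence of the drug cannot be told apart. Each resistant group is a single line. The dose of cisplatin, whether the lines are clones, and whether the libraries of a group came from separate cultures are not stated in the labels, so p-values cover the spread between these libraries, which may be technical.

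TGF-beta ligands are secreted as inactive dimers that stay bound to their propeptide and, through it, to latent TGF-beta binding proteins in the matrix. Integrins and proteases release the ligand, which binds TGFBR2, and TGFBR2 then activates the kinase TGFBR1. TGFBR3, or betaglycan, presents ligand to these receptors, TGFB2 above all. Active TGFBR1 phosphorylates SMAD2 and SMAD3, which enter the nucleus with SMAD4 and act on target genes. SMAD7 is induced by the pathway and blocks TGFBR1, while SKIL (SnoN) and SKI hold SMAD complexes in a repressed state. In epithelial cells the pathway is best known for growth arrest and for the epithelial-mesenchymal transition, which the series title names.

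The promoters of the 4 members with a difference past the threshold in at least 1 comparison are shown because these genes did not change together. Each is the 250 bases before an annotated transcript start in RefSeq on GRCh38.p14, read 5' to 3' on the strand of the gene. TGFB1 is on the minus strand at chr19:41353923-41354172. TGFB2 (chr1:218345086-218345335), LTBP1 (chr2:32946703-32946952) and TGFBR2 (chr3:30606351-30606600) are on the plus strand. The TGFBR2 window belongs to the downstream of 2 annotated starts and the LTBP1 window to the first of 3. Capitals mark every match, on either strand, to any of 6 motifs: the SMAD half-site CAGAC, the AP-1 site TGAGTCA, the cyclic AMP response element TGACGTCA, the E-box CACGTG, the GC box GGGCGG and the TATA box TATAAA.
TGFB1: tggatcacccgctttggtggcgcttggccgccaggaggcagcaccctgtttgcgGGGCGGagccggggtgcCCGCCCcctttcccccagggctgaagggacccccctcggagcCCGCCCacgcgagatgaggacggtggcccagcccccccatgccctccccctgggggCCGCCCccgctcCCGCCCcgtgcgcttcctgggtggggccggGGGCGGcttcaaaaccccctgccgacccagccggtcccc
TGFB2: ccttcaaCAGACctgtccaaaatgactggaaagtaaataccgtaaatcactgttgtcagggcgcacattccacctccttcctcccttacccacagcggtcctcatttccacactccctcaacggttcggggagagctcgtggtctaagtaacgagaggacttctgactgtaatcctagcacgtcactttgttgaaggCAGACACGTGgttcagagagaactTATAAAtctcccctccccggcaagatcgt
LTBP1: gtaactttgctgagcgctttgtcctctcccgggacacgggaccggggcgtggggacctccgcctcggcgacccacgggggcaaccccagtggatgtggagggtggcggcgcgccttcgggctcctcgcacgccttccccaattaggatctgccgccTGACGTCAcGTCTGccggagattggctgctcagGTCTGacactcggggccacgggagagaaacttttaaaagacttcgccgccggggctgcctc
TGFBR2: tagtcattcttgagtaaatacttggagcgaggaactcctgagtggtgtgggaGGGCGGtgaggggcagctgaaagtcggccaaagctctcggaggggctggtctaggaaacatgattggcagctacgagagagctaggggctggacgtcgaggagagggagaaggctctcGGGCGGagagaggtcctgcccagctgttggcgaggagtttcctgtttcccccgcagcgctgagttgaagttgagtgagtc

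The TGFB1 window held 6 GC boxes and none of the other motifs, and 76.8% of its bases were G or C. The TGFB2 window held 0 GC boxes. It had 2 SMAD half-sites, the second of which shared a base with an E-box, and a TATA box 29 bases before the start. The LTBP1 window had a cyclic AMP response element and 2 SMAD half-sites. The TGFBR2 window shown had 2 GC boxes, and the window at the upstream TGFBR2 start held none of the 6 motifs. Among the 27305 genes with such a window, 42.3% had a GC box and 37.8% a SMAD half-site. An E-box was found in 6.49%, an AP-1 site in 4.16%, a TATA box in 11.1% and a cyclic AMP response element in 1.76%. A match is a run of letters, and binding was not measured.

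The values are normalised reads, that is, reads divided by a factor for each library, and they can be compared between libraries for a gene but not between genes. The libraries held between 5825708 and 7607679 reads, and 3 reads equal 2.62 to 3.37 normalised reads. Within groups, Pearson correlations of log2 values were 0.978 to 0.982 for OV90CisR2, 0.979 for OV90 replicates 1 and 2, and 0.980 for OV90CisR1 replicates 1 and 2. OV90 replicate 3 correlated at 0.955 and 0.957 with its group and OV90CisR1 replicate 3 at 0.941 and 0.942 with its own. Some results that change without these libraries are given with and without them. Of 8 ovarian carcinoma markers, PAX8, MUC16, KRT7 and KRT19 had 0 reads in OV90, and WT1 and KRT18 had 4 and 3 in all. EPCAM had 44.9 ± 6.77 normalised reads (SD, n = 3), and KRT8 had 5, 1 and 29 reads in OV90 replicates 1 to 3. Only EPCAM and KRT8 were tested, and neither was called in OV90CisR1. KRT8 rose in OV90CisR2 by 3.32 ± 0.76 (SE) on the log2 scale (limma adjusted p = 0.04), where 2.35% of all genes rose. The 8 markers summed to 46.3 to 72.0, 64.0 to 97.6 and 101.2 to 124.9 normalised reads in OV90, OV90CisR1 and OV90CisR2. The cells are therefore named here by their labels only.

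Of the ligands, TGFB1 (chromosome 19, 41330323 to 41353922) was higher in OV90CisR1 than in either other group. OV90 replicates 1 to 3 had 92.5, 79.8 and 110.6 normalised reads of TGFB1. OV90CisR1 had 212.8, 179.2 and 240.5, and OV90CisR2 had 98.2, 107.6 and 81.8. Every OV90CisR1 library lay above all 6 others, and the OV90 and OV90CisR2 ranges overlapped. TGFB1 rose 2.23-fold in OV90CisR1 against OV90, which is 1.15 ± 0.20 on the log2 scale (SE; limma adjusted p = 0.0044). It was lower in OV90CisR2 than in OV90CisR1 with a difference of -1.13 ± 0.20 on the log2 scale (limma adjusted p = 0.0061). Between OV90CisR2 and OV90 the log2 fold change was 0.03, with a 95% interval from -0.40 to 0.46 (limma adjusted p = 0.96). In bulk RNA, fewer cells with the transcript and less transcript per cell cannot be told apart.

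TGFB2 (chromosome 1, 218345336 to 218444619) was ordered OV90CisR1, OV90, OV90CisR2 with no overlap between neighbours. The OV90CisR1 replicates 1 to 3 had 414.2, 391.3 and 367.4 normalised reads. OV90 had 295.1, 326.1 and 334.6, and OV90CisR2 had 199.6, 260.7 and 192.7. Only the outer pair differed past the threshold, with TGFB2 lower in OV90CisR2 than in OV90CisR1 the difference being -0.85 ± 0.15 on the log2 scale (SE; limma adjusted p = 0.0066). The log2 fold change against OV90 was 0.29 ± 0.15 in OV90CisR1 (limma adjusted p = 0.20) and -0.56 ± 0.15 in OV90CisR2 (limma adjusted p = 0.075). DESeq2 on the recovered reads called the latter (adjusted p = 0.036), as did limma without OV90 replicate 3 and OV90CisR1 replicate 3 (adjusted p = 0.012).

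The printed TGFB2 promoter lies inside the antisense gene TGFB2-AS1 (chromosome 1, 218344196 to 218345678), which was singled out after its values were seen. TGFB2-AS1 had 7.20, 9.73 and 7.20 normalised reads in OV90 replicates 1 to 3, then 5.17, 10.6 and 13.5 in OV90CisR1. In OV90CisR2 it had 1.02, 0.875 and 1.76, which is 1 or 2 reads in each library. All OV90CisR2 libraries were below all others. Its log2 fold change in OV90CisR2 was -2.04 ± 0.49 (SE) against OV90 (limma adjusted p = 0.049) and -2.21 ± 0.49 against OV90CisR1 (limma adjusted p = 0.018). The former call held only when OV90 replicate 3 or OV90CisR1 replicate 3 was the library left out, and was lost with edgeR (adjusted p = 0.051) and DESeq2 (adjusted p = 0.066). The latter was lost without OV90CisR1 replicates 2 or 3 or any OV90CisR2 library (adjusted p 0.0504 to 0.067). Strand handling in the counting is not stated, so any reads from the overlap of the TGFB2 and TGFB2-AS1 genes could have been assigned to either. That overlap is at the 5' end of both genes, whereas the kit reads 3' ends. TGFB2-OT1, annotated on the same strand over the last 1000 bases of TGFB2, had 0 reads in all 9 libraries, and no other member had an annotated exon of another gene there.

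TGFB3 (chromosome 14, 75958097 to 75983011) varied more within groups. OV90 replicates 1 to 3 had 51.4, 59.4 and 96.2 normalised reads, with replicate 3 well above the others. OV90CisR1 had 103.3, 107.1 and 74.2, with replicate 3 lowest, and OV90CisR2 had 82.9, 76.1 and 66.9. All 3 ranges overlapped. The log2 fold change in OV90CisR1 was 0.49 ± 0.26 (SE; limma adjusted p = 0.21). Without OV90 replicate 3 and OV90CisR1 replicate 3, which were the libraries nearest to the other group, the value was 0.92 (limma adjusted p = 0.0051). With OV90 replicate 3 alone left out it was 0.75 (limma adjusted p = 0.048). In OV90CisR2 it was 0.17, with a 95% interval from -0.40 to 0.74.

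LTBP1 (chromosome 2, 32946953 to 33399509), which tethers latent TGF-beta to the matrix, followed the order OV90, OV90CisR2, OV90CisR1. OV90 replicates 1 to 3 had 4227, 4314 and 5036 normalised reads, and OV90CisR1 had 6409.8, 6712 and 6534. OV90CisR2 had 5629.8, 5349 and 5308. No neighbouring groups overlapped, although OV90 replicate 3 came close to OV90CisR2. LTBP1 rose in OV90CisR1 by 0.54 ± 0.12 on the log2 scale (SE; limma adjusted p = 0.013), a call lost without OV90 replicate 1 (adjusted p = 0.058). In OV90CisR2 the log2 fold change was 0.27 ± 0.12 (limma adjusted p = 0.26). Without OV90 replicate 3 it was 0.35 (limma adjusted p = 0.047). Between the resistant lines LTBP1 differed, OV90CisR2 minus OV90CisR1, by -0.27 ± 0.12 (limma adjusted p = 0.16). This was called without OV90 replicate 3 and OV90CisR1 replicate 3 (limma adjusted p = 0.016).

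**Figure D1:**
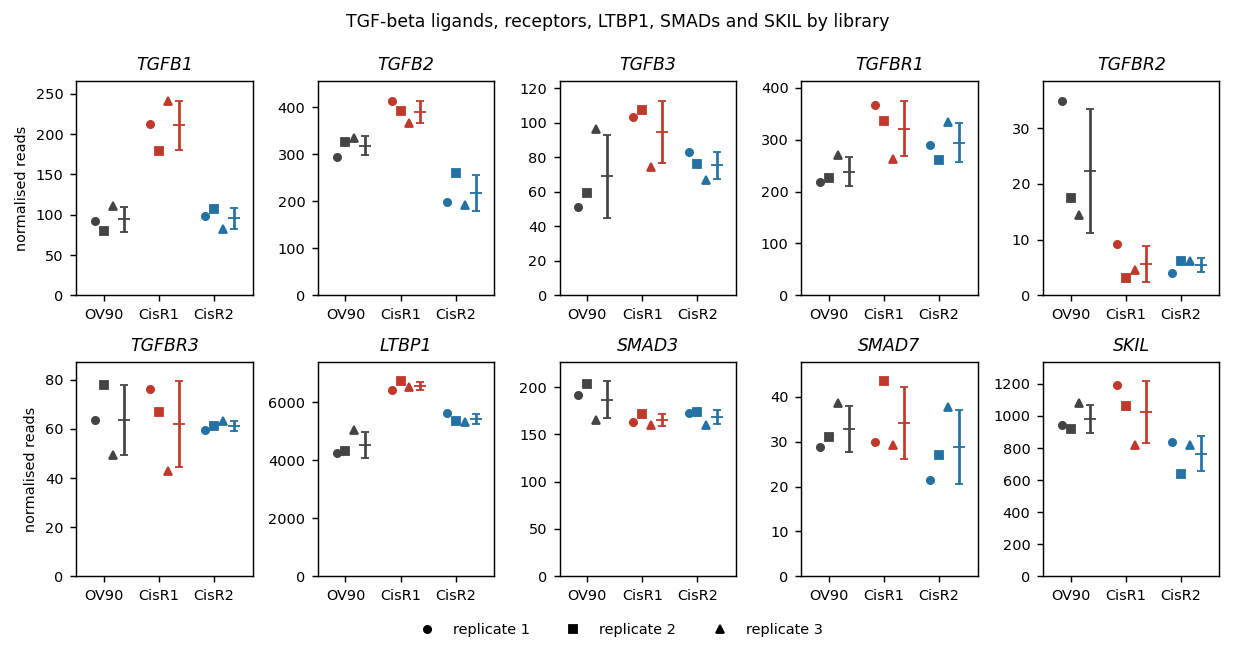
Normalised reads of the 10 genes in each library, one panel per gene with its own axis from 0. Symbols give the replicate number, and the bar beside each group is the mean ± SD of its 3 libraries. TGFB1 is high in the 3 OV90CisR1 libraries (179.2 to 240.5), TGFBR2 is below 10 normalised reads in all 6 resistant libraries, and the SMAD3, SMAD7 and TGFBR3 groups overlap.

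Of the receptors, TGFBR2 (chromosome 3, 30606356 to 30694142), the ligand-binding kinase, was lower in both resistant lines. OV90 replicates 1 to 3 had 35.0, 17.5 and 14.4 normalised reads, or 34, 18 and 16 reads. OV90CisR1 had 9.30, 3.18 and 4.49, or 9, 3 and 4 reads, and OV90CisR2 had 4.09, 6.12 and 6.16, or 4, 7 and 7 reads. Every resistant library was below every OV90 library, and OV90 replicate 1 was well above the other OV90 libraries. TGFBR2 fell in OV90CisR1 by 1.81 ± 0.49 on the log2 scale (SE; limma adjusted p = 0.03). In OV90CisR2 the log2 fold change was -1.77 ± 0.49 and did not pass (limma adjusted p = 0.077). The gene had a log2 fold change of 0.04 between the resistant lines, with an interval from -1.02 to 1.11, which is wide at counts this low. The call in OV90CisR1 was lost when OV90 replicate 1, OV90 replicate 2, OV90CisR1 replicate 2 or OV90CisR1 replicate 3 was left out (adjusted p 0.055 to 0.12). In OV90CisR2, TGFBR2 passed with DESeq2 (adjusted p = 0.028) and without OV90 replicate 3 (limma adjusted p = 0.043), but not with edgeR.

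TGFBR1 (chromosome 9, 99103647 to 99154192), the signalling kinase, had 219.0, 225.8 and 269.8 normalised reads in OV90 replicates 1 to 3. It had 366.7, 335.1 and 261.8 in OV90CisR1 and 288.6, 259.8 and 333.4 in OV90CisR2. Most resistant libraries were above most OV90 libraries, but each resistant group overlapped OV90. The log2 fold change was 0.42 ± 0.17 in OV90CisR1 (SE; limma adjusted p = 0.11) and 0.30 ± 0.17 in OV90CisR2 (limma adjusted p = 0.40). Without OV90 replicate 3 and OV90CisR1 replicate 3 the values were 0.65 (limma adjusted p = 0.0029) and 0.39 (limma adjusted p = 0.034). TGFBR3 (chromosome 1, 91680343 to 91906002) had means of 63.7 ± 14.2 in OV90, 62.0 ± 17.4 in OV90CisR1 and 61.3 ± 1.99 in OV90CisR2 (SD, n = 3). Its log2 fold changes lay between -0.06 and 0.02, with intervals that reached from -0.63 to 0.60.

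The SMADs and the corepressor did not pass in any of the 3 comparisons. SMAD3 (chromosome 15, 67065602 to 67195169) had 191.3, 203.4 and 165.5 normalised reads in OV90 replicates 1 to 3, then 163.2, 171.8 and 159.6 in OV90CisR1 and 173.0, 173.2 and 160.1 in OV90CisR2. The groups overlapped, and its intervals against OV90 ran from -0.50 to 0.15 in OV90CisR1 and from -0.47 to 0.19 in OV90CisR2. SMAD7 (chromosome 18, 48919853 to 48950965), itself a target gene of the pathway, had means of 32.9 ± 5.16, 34.2 ± 8.03 and 28.8 ± 8.30 (SD, n = 3) in OV90, OV90CisR1 and OV90CisR2. Its intervals against OV90 ran from -0.61 to 0.69 and from -0.86 to 0.44, which are wide at this depth. SKIL (chromosome 3, 170357715 to 170396849) had 945.0, 917.8 and 1078 in OV90, 1194, 1063 and 816.9 in OV90CisR1, and 835.1, 638.6 and 817.3 in OV90CisR2. All OV90CisR2 libraries were below all OV90 libraries, and OV90CisR1 overlapped each of the other groups. The log2 fold change of SKIL in OV90CisR2 was -0.37 ± 0.17 (SE) against OV90 (limma adjusted p = 0.28) and -0.42 ± 0.17 against OV90CisR1 (limma adjusted p = 0.13). Without OV90CisR1 replicate 3 the latter was -0.57 (limma adjusted p = 0.025).

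Over the 10 genes, 2 rose (TGFB1 and LTBP1) and 1 fell (TGFBR2) in OV90CisR1 against OV90, in a comparison that called 15.8% of 14233 genes (8.54% up and 7.29% down). In OV90CisR2 against OV90, limma called 0 of the 10 and 3.29% of all genes (2.35% up and 0.941% down). There, 4 of the 10 had an unadjusted p under 0.05 (TGFB2, TGFBR2, LTBP1 and SKIL), edgeR called 0, and DESeq2 called TGFB2 and TGFBR2. Of all 14233 genes, 2515 had such a p, and edgeR and DESeq2 called 506 and 878. Between the resistant lines 2 of the 10 were lower in OV90CisR2 (TGFB1 and TGFB2), against 10.1% of all genes called (5.16% higher and 4.9% lower in OV90CisR2). The median log2 fold change over the 10 was 0.17, -0.09 and -0.26 in these comparisons, beside -0.01, 0.00 and 0.03 over all tested genes. Groups did not overlap for 4, 4 and 3 of the 10, beside 34.7%, 27% and 37.6% of all genes. In OV90CisR1 against OV90, 3 of these 4 were higher and 1 lower, beside 17.5% and 17.1% of all genes. Without OV90 replicate 3 and OV90CisR1 replicate 3 the counts called were 5, 4 and 4, beside 3901, 3633 and 3750 of all 14233 genes. The comparisons share libraries, so their values are not independent of each other.

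**Figure D2:**
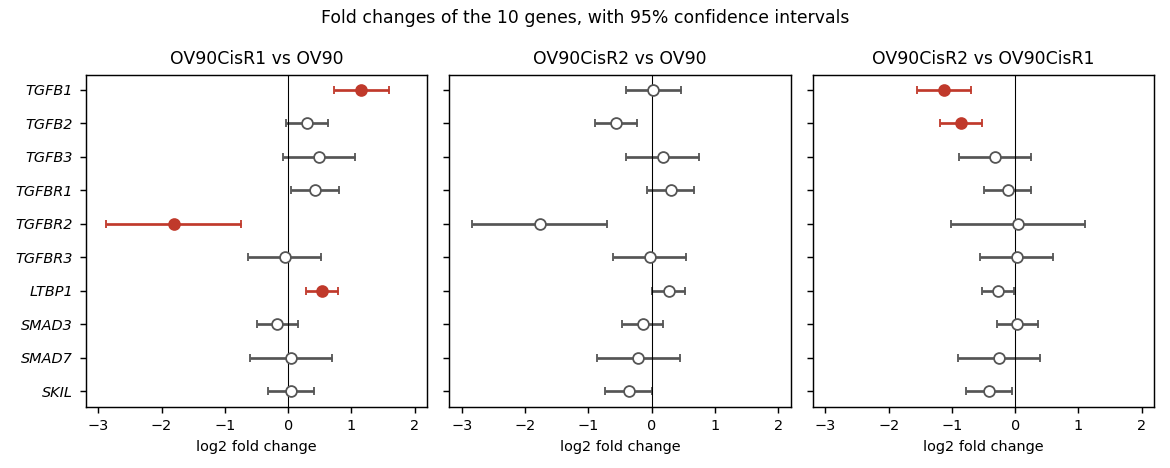
Log2 fold changes of the 10 genes on the log2(normalised reads + 1) scale in the 3 comparisons, with 95% confidence intervals from limma. Filled red points passed the adjusted p threshold of 0.05. TGFB1 is at 1.15 in OV90CisR1 and at 0.03 in OV90CisR2, whereas TGFBR2 is at -1.81 and -1.77 with wide intervals.

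Of 21 other genes that hold or release latent ligand, 15 were tested. Against OV90, 6 of them rose in OV90CisR1 and none fell, beside 8.54% and 7.29% of all tested genes, with a median log2 fold change of 0.57. MMP14, a membrane protease that can release latent TGF-beta, had 701.3, 590.8 and 574.7 normalised reads in OV90 replicates 1 to 3 and 1887, 1481 and 2385 in OV90CisR1. Its log2 fold change was 1.60 ± 0.20 (SE; limma adjusted p = 0.0011). ITGAV, the alpha v integrin subunit that binds the latent propeptide, had 561.5, 464.3 and 432.6 in OV90 and 1105, 1102 and 1057 in OV90CisR1. It rose by 1.17 ± 0.13 on the log2 scale (limma adjusted p = 0.000607), and in both genes every OV90CisR1 library was above every OV90 library. ITGB3, a beta subunit that pairs with ITGAV, rose by 0.93 ± 0.27 (limma adjusted p = 0.041), a call that held in only 1 of the 9 fits that left out a library, the fit without OV90CisR1 replicate 2. The remaining rises, named after their values were seen, were ITGB1, which rose by 0.44, and the LTBP1 relatives LTBP3, which rose by 0.88, and LTBP4, by 0.85 (limma adjusted p = 0.043, 0.026 and 0.0083). The ITGB1 call held only when OV90CisR1 replicate 3 was the library left out, and that of LTBP3 was lost without OV90 replicate 1 (adjusted p = 0.084) or OV90 replicate 2 (adjusted p = 0.083). THBS1, or thrombospondin 1, and the protease gene PLAU, also named after their values were seen, had log2 fold changes of -1.84 (limma adjusted p = 0.15) and -1.45 (limma adjusted p = 0.39). Both had 0 reads in OV90CisR1 replicate 3. In OV90CisR1 replicates 1 and 2 PLAU had 44.4 and 35.0 normalised reads, against 38.0, 29.2 and 27.0 in OV90. THBS1 had 4.13 and 15.9 there, against 16.5, 24.3 and 8.09 in OV90. The count of rises dropped to 3 when OV90 replicate 1 or OV90 replicate 2 was left out, where 578 and 829 of all 14233 genes rose. Without OV90CisR1 replicate 2, 1 gene of the list fell, beside 878 of all genes.

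In OV90CisR2, limma called none of these 15 genes against OV90, beside 3.29% of all genes. An unadjusted p under 0.05 was found for 4 of them and for 2515 of all 14233 genes. Of the 15, edgeR called 0 and DESeq2 called 1, beside 506 and 878 of all genes. Without OV90 replicate 3 and OV90CisR1 replicate 3 limma called 2 up and 3 down, beside 1989 and 1644 of all genes. Between the resistant lines, 3 of the 15 were lower in OV90CisR2 and none higher, beside 4.9% and 5.16% of all genes. ITGAV had 393.0, 461.0 and 423.2 normalised reads in OV90CisR2, which differed from OV90CisR1 by -1.35 ± 0.13 (SE) on the log2 scale (limma adjusted p = 0.000298). MMP14 had 618.1, 929.0 and 616.7, a difference of -1.41 ± 0.20 (limma adjusted p = 0.0023). ITGB1, the beta 1 subunit, had 1642, 1878 and 1513 in OV90CisR2 and 2955, 3218 and 2533 in OV90CisR1, a difference of -0.79 ± 0.13 (limma adjusted p = 0.0048). The next genes of the list are given outside the rule for naming genes. ITGB6, whose product with ITGAV is a main activator of TGF-beta in epithelia, and LRRC32, a cell surface carrier of the latent ligand, had 0 reads in all 9 libraries. ITGB8 had 1, 6 and 6 reads summed over OV90, OV90CisR1 and OV90CisR2. ITGB5, another integrin beta subunit, had 426.1 ± 66.4, 515.3 ± 80.1 and 616.5 ± 21.8 normalised reads (SD, n = 3) in these groups. It was called in no comparison, although all OV90CisR2 libraries were above all OV90 libraries.

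**Figure D3:**
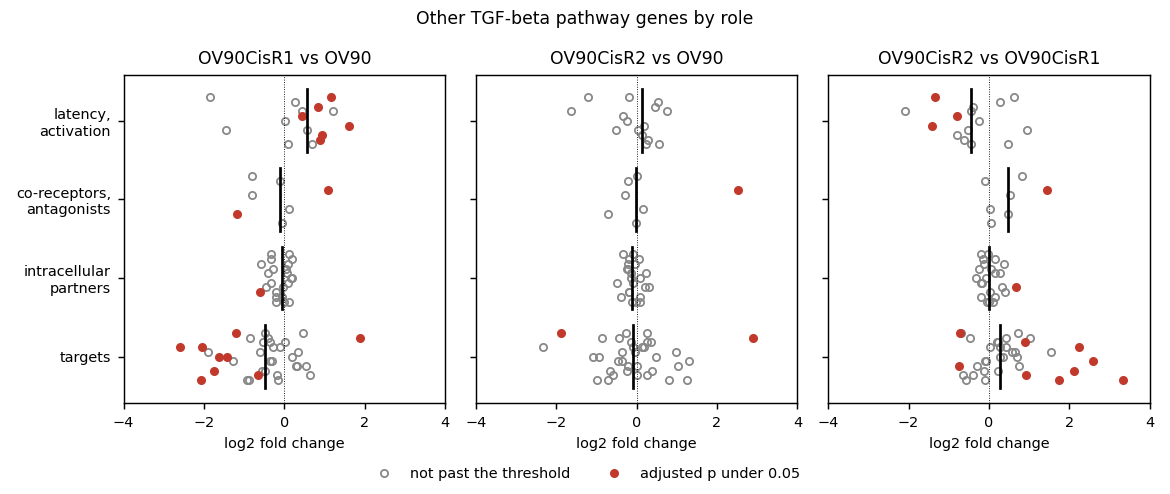
Log2 fold changes of the tested genes of 4 lists of other pathway genes, by role, in the 3 comparisons. Each point is a gene, filled red where its adjusted p was under 0.05, black bars are list medians, and the vertical spread of points within a list carries no value. In OV90CisR1 against OV90 the latency and activation list has its called genes above 0, with a median of 0.57, and the target list has 8 called genes below 0 and 1 above, with a median of -0.47.

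Of 12 co-receptors and antagonists 7 were tested. Against OV90, 1 rose (DCN) and 1 fell (PMEPA1) in OV90CisR1, beside 8.54% and 7.29% of all tested genes. DCN was the 1 gene of the list called in OV90CisR2 against OV90 and the 1 called between the resistant lines. In these comparisons 3.29% and 10.1% of all tested genes were called. DCN, the proteoglycan decorin, which binds TGF-beta, had 29.8, 43.8 and 35.98 normalised reads in OV90 replicates 1 to 3. It had 99.2, 92.3 and 50.6 in OV90CisR1 and 233.3, 192.4 and 208.5 in OV90CisR2, with no overlap between groups. DCN rose by 1.08 ± 0.27 on the log2 scale in OV90CisR1 (SE; limma adjusted p = 0.022) and by 2.51 ± 0.27 in OV90CisR2 (limma adjusted p = 0.000315). It was higher in OV90CisR2 than in OV90CisR1 by 1.43 ± 0.27 (limma adjusted p = 0.0083). The call in OV90CisR1 was lost without OV90 replicate 1 or OV90CisR1 replicates 1 or 2 (adjusted p 0.064 to 0.081), and that between the resistant lines without OV90CisR2 replicate 1 (adjusted p = 0.052). PMEPA1, a target gene whose product sequesters receptor SMADs, had 115.2, 129.5 and 133.1 in OV90, 38.2, 68.9 and 62.9 in OV90CisR1, and 72.7, 69.1 and 88.9 in OV90CisR2. All resistant libraries were below all OV90 libraries. PMEPA1 fell in OV90CisR1 by 1.18 ± 0.24 (limma adjusted p = 0.01), and its log2 fold change in OV90CisR2 was -0.71 ± 0.24 (limma adjusted p = 0.14). BAMBI, a decoy receptor, had 7, 3 and 24 reads in all in OV90, OV90CisR1 and OV90CisR2 and was not tested.

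Of 24 intracellular partners of the SMADs 23 were tested, and 1, 0 and 1 were called in the 3 comparisons, beside 15.8%, 3.29% and 10.1% of all genes. Their log2 fold changes had medians of -0.06, -0.11 and 0.00 in the 3 comparisons. In OV90CisR1 against OV90, 1 fell and none rose, PPM1A, a phosphatase that acts on SMAD2 and SMAD3, by 0.60 ± 0.17 on the log2 scale (SE; limma adjusted p = 0.034). This call was lost without any of 6 libraries, which were OV90 replicates 1 and 2, OV90CisR1 replicates 2 and 3, and OV90CisR2 replicates 1 and 3 (adjusted p 0.055 to 0.13). In OV90CisR2 against OV90 limma called 0 of the 23, with 2 at an unadjusted p under 0.05 and 0 called by edgeR and by DESeq2. Of all 14233 genes, 2515 had such a p, and edgeR and DESeq2 called 506 and 878. STRAP, an adaptor that binds SMAD7, was higher in OV90CisR2 than in OV90CisR1 by 0.68 ± 0.18 (limma adjusted p = 0.041). That call held only without OV90 replicate 2 or 3 among the 9 fits that left out a library. SMAD2, the partner of SMAD3, had means of 538.8 ± 19.4, 517.4 ± 51.1 and 573.3 ± 61.8 normalised reads (SD, n = 3) in OV90, OV90CisR1 and OV90CisR2, and did not pass. SMAD4, the shared SMAD, had 256.9 ± 27.9, 174.8 ± 43.8 and 221.5 ± 20.8, and differed from OV90 by -0.58 ± 0.19 in OV90CisR1 (limma adjusted p = 0.064, or 0.032 without OV90CisR1 replicate 1). SKI had 543.2 ± 17.5, 617.0 ± 50.6 and 493.8 ± 21.9 and did not pass.

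Among genes that TGF-beta is known to regulate, more fell than rose in OV90CisR1. Of 40 listed target genes 35 were tested, and against OV90 8 fell and 1 rose, beside 7.29% and 8.54% of all genes, with a median log2 fold change of -0.47. The list was not split into genes that TGF-beta induces and genes that it represses, so these counts and medians give no direction of pathway activity. CCN2, or connective tissue growth factor, separated the resistant lines. OV90 replicates 1 to 3 had 541.9, 498.3 and 546.9 normalised reads, OV90CisR1 had 190.1, 164.4 and 123.6, and OV90CisR2 had 702.1, 589.6 and 774.2. No groups overlapped. CCN2 fell by 1.75 ± 0.17 on the log2 scale in OV90CisR1 (SE; limma adjusted p = 0.000232) and was higher in OV90CisR2 than in OV90CisR1 by 2.12 ± 0.17 (limma adjusted p = 0.000113). Against OV90 its log2 fold change in OV90CisR2 was 0.37 ± 0.17 (limma adjusted p = 0.30). This became 0.40 (limma adjusted p = 0.029) without OV90 replicate 3 and OV90CisR1 replicate 3.

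FN1, fibronectin, had the same order of groups with overlap between OV90 and OV90CisR2. It had 55.5, 55.5 and 73.8 normalised reads in OV90 replicates 1 to 3, 17.6, 13.8 and 11.2 in OV90CisR1, and 75.7, 60.4 and 73.9 in OV90CisR2. FN1 fell by 2.05 ± 0.26 on the log2 scale in OV90CisR1 (SE; limma adjusted p = 0.00103), and it was higher in OV90CisR2 than in OV90CisR1 by 2.24 ± 0.26 (limma adjusted p = 0.000657). ACTA2, smooth muscle actin, had 10.3, 10.7 and 12.6 in OV90, 2.07, 0 and 6.74 in OV90CisR1, and 29.7, 34.1 and 22.0 in OV90CisR2. ACTA2 fell in OV90CisR1 by 2.08 ± 0.63 (limma adjusted p = 0.045), a call that held only in the fit without OV90CisR1 replicate 3 (adjusted p 0.069 to 0.10 in the other 8). It was higher in OV90CisR2 than in OV90CisR1 by 3.34 ± 0.63 (limma adjusted p = 0.0085). TIMP1, an inhibitor of metalloproteinases, was the 1 target that rose in OV90CisR1, by 1.87 ± 0.31 (limma adjusted p = 0.004), and it rose in OV90CisR2 by 2.89 ± 0.31 (limma adjusted p = 0.000344). Its 3 groups did not overlap, with 7.79 to 10.8 in OV90, 25.8 to 55.1 in OV90CisR1 and 66.9 to 84.0 in OV90CisR2. TGFBI, the protein named for its induction by TGF-beta, had 11, 14 and 4 reads in the 3 groups and was not tested.

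**Figure D4:**
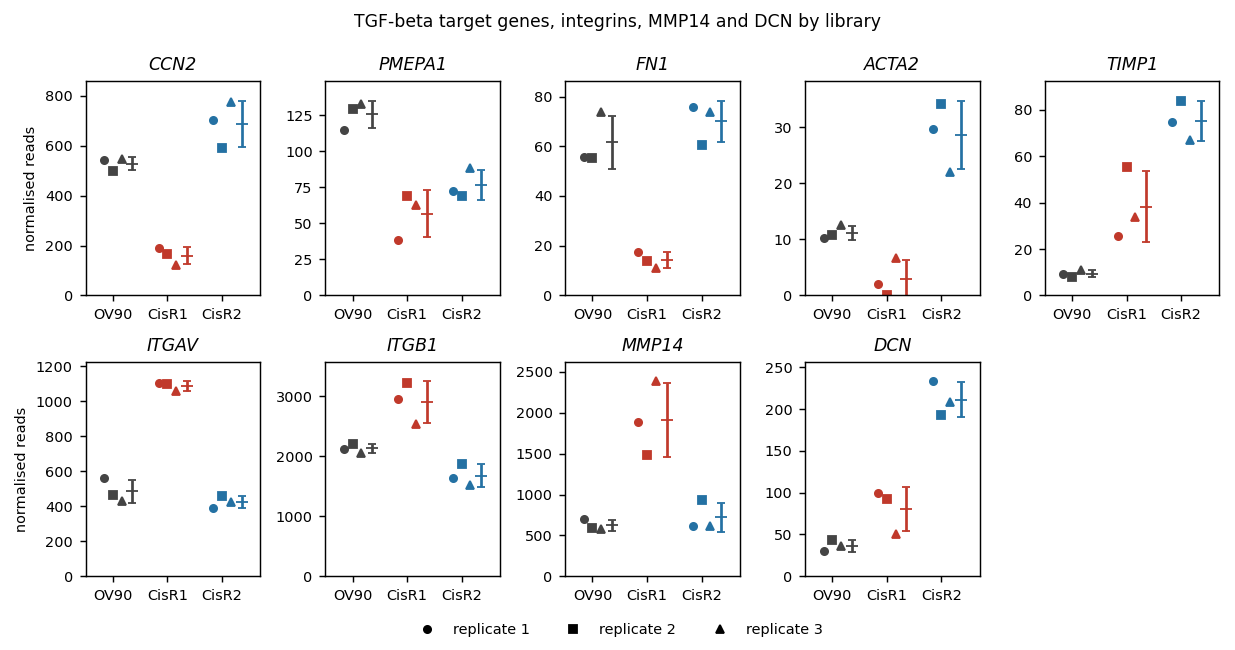
Normalised reads of target genes (CCN2, PMEPA1, FN1, ACTA2 and TIMP1) and of ITGAV, ITGB1, MMP14 and DCN in each library, with an axis from 0 for each gene and the mean ± SD of each group beside its points. PMEPA1 is low in both resistant lines, while CCN2, FN1 and ACTA2 are low in OV90CisR1 alone and ITGAV, ITGB1 and MMP14 are high there. The ACTA2 bar of OV90CisR1 is cut at 0.

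In OV90CisR2 against OV90, 1 of the 35 targets rose (TIMP1) and 1 fell, beside 2.35% and 0.941% of all genes, with a median of -0.10. The fall was that of BHLHE40, a transcription factor that TGF-beta induces, by 1.89 ± 0.25 on the log2 scale (SE; limma adjusted p = 0.0014). BHLHE40 was also among the targets that fell in OV90CisR1, by 1.19 ± 0.25 (limma adjusted p = 0.011). All resistant libraries were below all OV90 libraries for this gene. Between the resistant lines 7 targets were higher and 2 lower in OV90CisR2, beside 5.16% and 4.9% of all genes, with a median of 0.28. Besides ACTA2 and FN1, COL4A1, a basement membrane collagen, was higher by 2.58 ± 0.48 (limma adjusted p = 0.0079). HMGA2, a chromatin protein, was lower, with a difference of -0.75 ± 0.18 (limma adjusted p = 0.027), as was SPHK1, sphingosine kinase, with -0.72 ± 0.19 (limma adjusted p = 0.033). The HMGA2 call was lost without OV90CisR1 replicate 2 or any OV90CisR2 library (adjusted p 0.067 to 0.10), and that of SPHK1 without any OV90CisR1 library or OV90CisR2 replicates 1 or 3 (adjusted p 0.053 to 0.14). Counts of targets depended on the libraries that stand apart. Without OV90 replicate 3 and OV90CisR1 replicate 3 limma called 3 targets up and 13 down in OV90CisR1, beside 1971 and 1930 of all 14233 genes. In OV90CisR2 it then called 9 up and 11 down, beside 1989 and 1644 of all genes. Between the resistant lines it then called 13 up and 7 down, beside 2046 and 1704 of all genes. In OV90CisR1 the number of targets that fell dropped to 4 with OV90 replicate 1 left out. It dropped to 5 with OV90 replicate 2 left out or OV90CisR2 replicates 1 or 3. Of all genes, 361, 529, 645 and 660 fell in these fits. In OV90CisR2 the number of targets that fell was 6 without OV90 replicate 3, 5 without OV90CisR1 replicate 3 and 2 without OV90CisR1 replicate 2. Of all genes, 525, 434 and 93 fell in these fits.

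Some markers of fibroblasts, which also respond to TGF-beta, were higher in the resistant groups. Of 8 markers, 7 were tested, and 4 rose in each resistant line against OV90, with medians of 1.08 and 1.07. Of all genes, 8.54% rose in OV90CisR1 and 2.35% in OV90CisR2. The rises, named after their values were seen, were DCN, POSTN and FAP in both lines, COL3A1 in OV90CisR1 and LUM in OV90CisR2. POSTN rose most, by 3.65 and 5.58 on the log2 scale, from 9 reads over OV90. COL1A1 and PDGFRB were called in neither line. The summed level of the 8 markers was 3190 to 4053 normalised reads in OV90, 5984 to 11281 in OV90CisR1 and 3705 to 5273 in OV90CisR2. The OV90 and OV90CisR2 ranges overlapped, and none of the 8 was at 0 in any group. Most of this sum was COL3A1, a fibrillar collagen, with 9804 reads over OV90, 24794 over OV90CisR1 and 11184 over OV90CisR2. In OV90CisR2 the log2 fold change of COL3A1 was 0.12 (limma adjusted p = 0.85). DCN and COL1A1 are on this list and on the lists of antagonists and targets. Endothelial markers had 1 read in all 9 libraries together, and the leukocyte markers summed to 24.3 to 69.9 in OV90, 71.9 to 135.3 in OV90CisR1 and 33.2 to 45.0 in OV90CisR2, with CD3E at 0 throughout. The leukocyte sum was nearly all CD68, a lysosomal protein of macrophages, with 155, 277 and 113 reads in the 3 groups, while PTPRC, the pan-leukocyte CD45, had 3, 4 and 1. The part of other cells in the results above was not tested.

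The genes with levels most like those of the called members over the 9 libraries were sought among tested genes whose mean exceeded the median gene. For TGFB1 they were STT3B, POGLUT1 and ILVBL (Pearson r of log2 values 0.991, 0.985 and 0.984). For TGFB2 they were NAV3, ARL6IP5 and TCF12 (0.981, 0.972 and 0.959), and for LTBP1 CCDC150, STT3A and MMP15 (0.984, 0.984 and 0.981). For TGFBR2 they were ATP6V1G1, LIMS1 and RAB7A (0.955, 0.927 and 0.925). STT3B, a catalytic subunit of oligosaccharyltransferase, had means of 601.1, 1068 and 636.7 normalised reads in OV90, OV90CisR1 and OV90CisR2, the pattern of TGFB1. The libraries of a group share their line, and the pairs were picked as the highest among all genes compared, so these values describe likeness only.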

How the data were processed

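The deposited file is a matrix of 43424 gene symbols by 9 libraries, and its unit is a normalised signal. The submitters' processing notes name GRCh38, edgeR, bedtools and Bowtie2. Their versions, the annotation and how strand and shared reads were counted are not stated there. Dividing a library's values by its lowest value above 0 gave whole numbers in 100% of cases (tolerance 1e-06), and these were taken as reads.

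A gene was tested if 3 of 9 libraries reached 1 CPM of their own total, which left 14233. The test was limma 3.58.1 (R 4.3.3) on log2(value + 1), with a trended prior variance, all 9 libraries in 1 fit, a mean per group, and Benjamini-Hochberg adjustment over all tested genes at a threshold of 0.05. Fold changes are on that scale, which understates changes of low genes. edgeR 4.0.16 and DESeq2 1.42.0 were run on the recovered reads as alternatives. The procedure was tested on simulated data. Reads without molecular identifiers are not independent molecules.

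The 10 genes, the lists of other pathway genes, the panel and the marker lists were chosen with earlier results of these data known. Per list and comparison, up to 3 rises and 3 falls past the threshold are named, besides a panel (SMAD2, SMAD4, SKI, BAMBI, PMEPA1, TGFBI and CCN2). The values of 1 further panel gene are not reported here. The 3 most similar genes are named for each member past the threshold in a comparison. Names outside this rule are marked in the text, apart from cell type markers and a gene that overlaps a member. Promoter sequences and gene coordinates are from RefSeq on GRCh38.p14, which held all 10 genes, and overlapping exons from GENCODE on GRCh38.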

Additional observations from a re-analysis of the deposited data

Results flagged for a closer look

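Among the genes named for that test, the contrast of a resistant line with OV90 differed between the lines for the 14 genes below. The test was that of OV90CisR2 against OV90CisR1, which removes the shared OV90 libraries, and it called 10.1% of all tested genes. The targets TPM1, LOXL2 and EDN1, which the naming rule left out, were also called (log2 difference 0.92, 0.90 and 1.73). The calls of STRAP, SPHK1, HMGA2, TGFB2-AS1 and DCN held in 2, 4, 5, 4 and 8 of the 9 fits that left out a library. Among the ligands the log2 difference, OV90CisR2 minus OV90CisR1, was -1.13 for TGFB1 and -0.85 for TGFB2, and it was -2.21 for the antisense gene TGFB2-AS1. It was -1.35 for ITGAV, -0.79 for ITGB1 and -1.41 for MMP14, genes that act on the latent ligand. DCN differed by 1.43 and STRAP by 0.68. Among target genes it was 2.12 for CCN2, 2.58 for COL4A1, 2.24 for FN1 and 3.34 for ACTA2, and -0.75 for HMGA2 and -0.72 for SPHK1. TGFB1, TGFB2 and the targets HMGA2 and SPHK1 were thus lower in OV90CisR2 than in OV90CisR1, and the targets CCN2, COL4A1, FN1 and ACTA2 were higher.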

How the results depend on the processing

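TGFB1 kept its calls in OV90CisR1 against OV90 and between the resistant lines under all 21 alternatives (log2 fold change 1.04 to 1.27 and -1.24 to -1.02), as did TGFB2 between the resistant lines (-0.99 to -0.77). No called member changed direction under any alternative. TGFBR2 passed in OV90CisR1 under 14 of 20 alternatives, and a filter at 5 CPM removed it. Tests of only the 2 groups compared gave 771 calls and 1 member (TGFB1) in OV90CisR1, where LTBP1 had an adjusted p of 0.065. The array quality weights gave 4220, 3538 and 4226 genes called and 5, 4 and 4 members in OV90CisR1 against OV90, OV90CisR2 against OV90 and OV90CisR2 against OV90CisR1. Without OV90 replicate 3 and OV90CisR1 replicate 3, a choice made because earlier results showed them apart, the numbers were 3901, 3633 and 3750 genes and 5, 4 and 4 members. The cause of these shifts was not tested. DESeq2 called 878 genes and 2 members in OV90CisR2 against OV90. Leaving out 1 library gave 939 to 2467, 177 to 1312 and 442 to 2327 genes called and 1 to 4, 0 to 2 and 2 to 3 members in the 3 comparisons. Same-numbered libraries of different groups had correlations of their deviations from -0.31 to 0.09, and differently numbered ones from -0.20 to 0.34. With 3 libraries per group these values cannot settle whether the numbers pair the libraries. A replicate block gave 1615, 287 and 875 genes called, and the same numbers of members called as without it (3, 0 and 2). Rises made up 71.4% of the calls in OV90CisR2 against OV90 and between 54.4% and 87% under the alternatives. No scaling moved the median of all genes by more than 0.1 on the log2 scale. Depth limits TGFBR2, which had under 10 reads in all resistant libraries, ACTA2 in OV90CisR1 and TGFB2-AS1 in OV90CisR2.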

Other observations

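The following pathway genes were picked after their values were seen. CDKN2B, a cell cycle inhibitor that TGF-beta induces, had means of 62.7 ± 18.8, 18.9 ± 1.91 and 31.7 ± 7.70 normalised reads (SD, n = 3) in OV90, OV90CisR1 and OV90CisR2. KLF10, an early TGF-beta response gene, had 444.7 ± 101.1, 190.3 ± 112.2 and 206.4 ± 35.3. TPM1, a tropomyosin of stress fibres, had 500.8 ± 106.2, 316.4 ± 45.6 and 598.7 ± 88.0. All of these were past the threshold in OV90CisR1 against OV90 (limma adjusted p = 0.0068, 0.046 and 0.035). The CDKN2B call held in every fit that left out a library, that of KLF10 was lost without any OV90 or OV90CisR2 library, and that of TPM1 without any OV90 library, OV90CisR1 replicate 1 or OV90CisR2 replicates 1 or 3. BGN, a proteoglycan related to DCN, had 13 reads in OV90CisR1 and 0 in the other groups, and SNAI2, a transcription factor that TGF-beta induces, had 5, 1 and 31 reads in the 3 groups. TPM1 was also higher in OV90CisR2 than in OV90CisR1, by 0.92 on the log2 scale (limma adjusted p = 0.011), a call lost without OV90CisR2 replicate 2 (adjusted p = 0.054).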
